A study of Homo sapiens with 6 samples.

Results

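The clustered protocadherin genes were examined as the 53 protein-coding genes of chromosome 5 whose symbols begin with PCDHA, PCDHB or PCDHG, of 20033 protein-coding genes in GENCODE release 44 on hg38. They comprised 15 alpha, 16 beta and 22 gamma genes and filled chr5:140786136-141512977, a stretch of 727 kb. Open chromatin was measured by ATAC-seq, in which the Tn5 transposase cuts accessible DNA, in cells grown out of SK-N-AS neuroblastoma xenografts. SKNAS-Vel (naive) cells came from tumors of vehicle-treated mice, and SKNAS-IR1 (R1) and SKNAS-IR2 (R2) cells came from tumors resistant to indisulam, a drug that causes degradation of the splicing factor RBM39. All 3 cell types shared the SK-N-AS background and were labelled as untreated in culture, and each was represented by 2 libraries of 100000 cells. Nothing states that the libraries of a cell type came from separate cultures, and R1 and R2 each stand for a single derived line, so that the spread between libraries may be technical.

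Clustered protocadherins are cell surface adhesion proteins that give neurons distinct identities. In the alpha and gamma clusters, each gene has its own promoter and a large first exon, which is spliced to constant exons shared by the whole cluster, whereas the beta genes consist of a single coding exon without constant exons. A neuron typically uses a few of the alternate promoters, whose choice involves CTCF, cohesin, DNA methylation and distant enhancers, while the C-type genes PCDHAC1, PCDHAC2, PCDHGC3, PCDHGC4 and PCDHGC5 have promoters that are regulated differently and are used more evenly. Most of the alternate promoters carry a conserved sequence element with the core CGCT.

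The conserved element is shown first because its longer forms are typical of the alternate promoters of each family. In the lines below, 30 bases around a CGCT of a promoter are given 5′ to 3′ on the plus strand of hg38, with the core in capitals. The genes are 2 examples from each family with the family's longer form of the element, chosen by hand after the sequences were read, followed by 2 C-type genes.

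PCDHA1 at chr5:140786089-140786118: ggccacatgatgtCGCTgtacaccacaaag
PCDHA2 at chr5:140794784-140794813: agccacatgatgtCGCTgtccaccatagag
PCDHB2 at chr5:141094547-141094576: agacgcggggtggCGCTgcagccttagaag
PCDHB3 at chr5:141100396-141100425: gaacgcatggtggCGCTgttgactaagaag
PCDHGA2 at chr5:141338706-141338735: ggcctctgagcgtCGCTgttgaccacctaa
PCDHGA3 at chr5:141343770-141343799: ggcctcttagtgtCGCTgttgaccactcaa
PCDHGC3 at chr5:141475883-141475912: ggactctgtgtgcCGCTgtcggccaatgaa
PCDHAC2 at chr5:140966422-140966451: tgagccctcctacCGCTccctttccccctc

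CGCT, on either strand, was present in the window from 250 bases before to 50 after the start in 51 of the 53 genes, or 96.2%, against 77.2% of all coding gene starts. Longer forms, chosen after reading these sequences, were more particular to the families. ATGTCGCT occurred in 10 of the 13 alternate alpha promoters and in 0.305% of all starts, GGTGGCGCT in 14 of 16 beta promoters and in 0.669% of all starts, and CGCTGTT in 13 of the 19 alternate gamma promoters and in 2.51% of all starts. None of the 3 longer forms was found in the 5 C-type promoters. A match describes the letters of the window and does not show that a factor binds there.

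The promoters with the most and the least open chromatin are shown over 250 bases upstream of the start. PCDHGC3 had a start peak in all 6 libraries, PCDHAC1 in 5 (chosen after its values were seen), and PCDHA1 in none. Capitals mark CGCT or its reverse complement AGCG.

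PCDHGC3 at chr5:141475697-141475946: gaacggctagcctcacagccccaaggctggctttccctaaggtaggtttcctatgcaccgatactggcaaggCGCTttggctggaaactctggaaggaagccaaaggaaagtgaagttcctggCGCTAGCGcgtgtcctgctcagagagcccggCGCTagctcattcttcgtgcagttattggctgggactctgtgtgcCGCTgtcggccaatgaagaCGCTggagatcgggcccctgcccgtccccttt
PCDHAC1 at chr5:140926049-140926298: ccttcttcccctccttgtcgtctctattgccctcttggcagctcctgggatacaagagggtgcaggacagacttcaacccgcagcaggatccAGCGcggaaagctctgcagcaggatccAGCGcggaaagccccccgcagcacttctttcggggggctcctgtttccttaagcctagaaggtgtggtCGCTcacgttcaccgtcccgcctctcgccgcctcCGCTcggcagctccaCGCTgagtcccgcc
PCDHA1 at chr5:140785886-140786135: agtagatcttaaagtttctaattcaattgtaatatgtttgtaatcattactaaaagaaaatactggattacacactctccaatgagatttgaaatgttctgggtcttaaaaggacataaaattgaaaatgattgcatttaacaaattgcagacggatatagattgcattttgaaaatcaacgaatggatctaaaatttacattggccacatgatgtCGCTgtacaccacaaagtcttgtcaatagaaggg

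The libraries differed greatly in depth. Peak calling by the authors was done library by library, and the lists held 154926 and 115694 peaks in naive cells, 340558 and 292030 in R1 cells and 67558 and 73484 in R2 cells. The background rate behind the fold enrichments was 2.29 and 1.35 reads per peak-calling window in naive cells, 7.94 and 5.43 in R1 cells and 0.850 and 0.899 in R2 cells. The fewest reads at a summit that were called a peak ranged from 6 in both R2 libraries to 18 in R1 replicate 1. Depth and cell type cannot be told apart where both R1 libraries stood above and both R2 libraries below the naive ones. Of the marker genes for the cell type, 6 of 10 adrenergic and 5 of 10 mesenchymal neuroblastoma markers had a start peak in all 6 libraries, against 1 of 5 blood, 0 of 4 endothelial and 3 of 4 epithelial markers. The share over all coding gene starts was 52.0%, so that the neuroblastoma lists lay near it.

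Most clustered protocadherin promoters had no peak in any cell type. A gene was counted as open where a peak of the list lay within 1000 bp of its annotated start. Naive replicates 1 and 2 had 5 and 3 open genes of 53, against a share of all coding gene starts with a peak of 68.5% and 65.0%. R1 had 18 and 14, against 82.6% and 80.7%, and R2 had 1 and 3, against 58.3% and 59.3%. The clustered genes were thus open far less often than gene starts in general in each library, and the R1 libraries lay above all others. No peak was found in any library at 31 of the 53 starts, or 58.5%, against 16.5% of all coding gene starts. With 500 bp in place of 1000 bp, R1 had 16 and 11 open genes and the other libraries kept their numbers. The 31 genes without a peak were 10 of 15 alpha, 12 of 16 beta and 9 of 22 gamma genes.

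**Figure D1:**
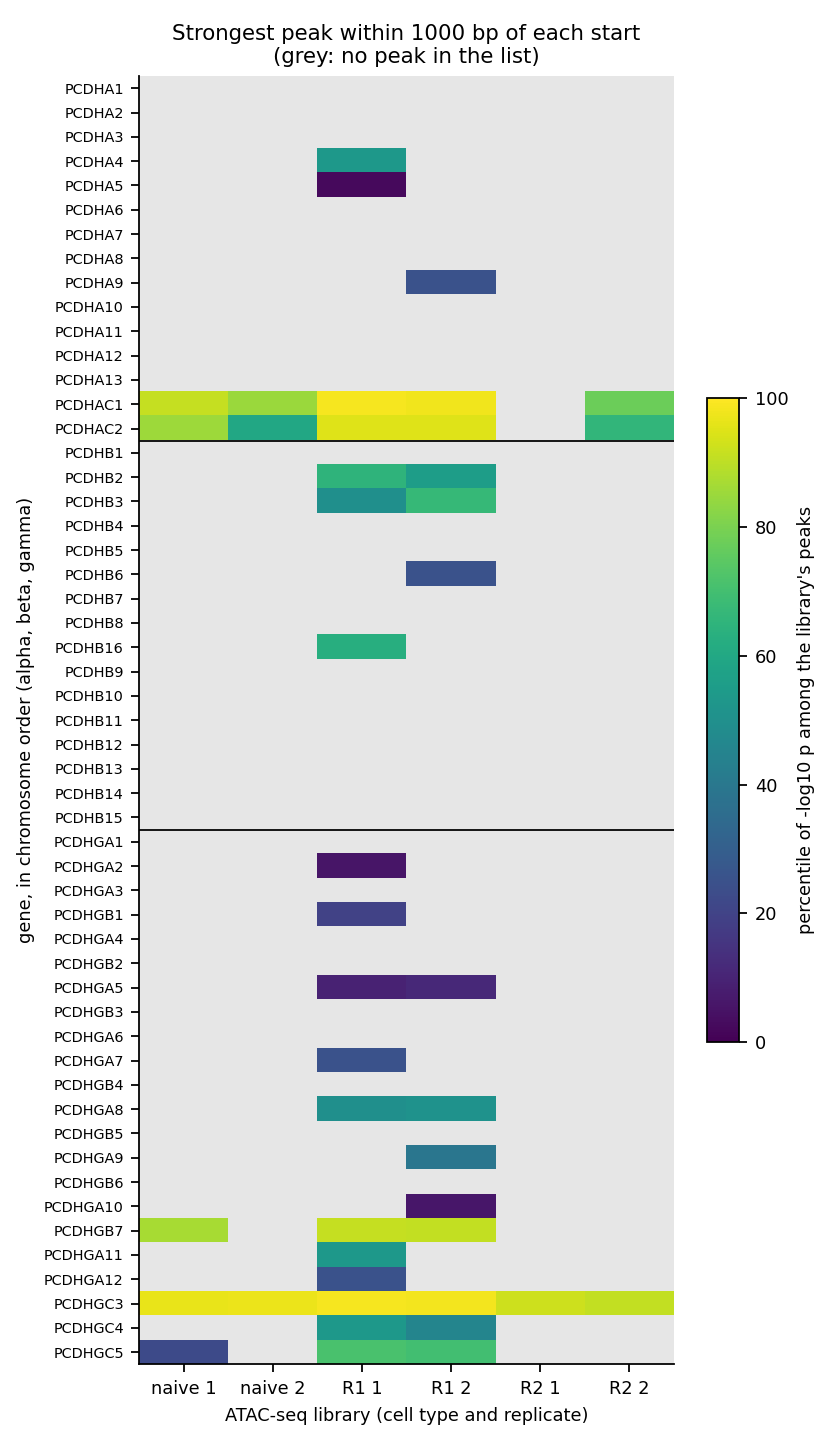
Each row is 1 of the 53 genes in chromosome order and each column a library, with color giving the percentile of −log10 p of the strongest peak within 1000 bp of the start among all peaks of that library, and grey where the list had no peak. PCDHGC3 is filled in all 6 columns, PCDHAC1 and PCDHAC2 in 5, and most rows of the alternate promoters are grey or filled only in the R1 columns.

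Open in both libraries of a cell type were 3 genes in naive cells (PCDHAC1, PCDHAC2 and PCDHGC3), 10 in R1 (PCDHAC1, PCDHAC2, PCDHB2, PCDHB3, PCDHGA5, PCDHGA8, PCDHGB7, PCDHGC3, PCDHGC4 and PCDHGC5) and 1 in R2 (PCDHGC3). The same held for 62.5%, 80.0% and 53.8% of all coding gene starts. PCDHGC3 was the only clustered gene of the 53 that was open in all 6 libraries, against 52.0% of all starts. The 5 C-type genes made up most of the open promoters outside R1. Of the C-type genes, naive replicates 1 and 2 had 4 and 3 open, R1 had 5 and 5, and R2 had 1 and 3. Of the other 48 genes, 1 and 0 were open in naive cells, 13 and 9 in R1 cells and 0 and 0 in R2 cells.

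PCDHGC3 had the strongest start peak of the gamma cluster. The number of reads at its summit was 41 and 33 in naive cells, 190 and 116 in R1 cells and 22 and 20 in R2 cells. Its percentile of −log10 p among all peaks of the library was 96.5 and 97.0 in naive cells, 98.7 and 98.1 in R1 cells and 92.5 and 90.8 in R2 cells. The summits lay between −152 and −38 bp from the start, and the gene ranked among the strongest peaks in every library. Divided by the background rate of each library, the summit stood at 21.2 ± 4.60-fold in naive cells, 22.6 ± 1.83-fold in R1 and 24.1 ± 2.56-fold in R2 (SD, n = 2 each). The 3 cell types overlapped on this scale, which is not free of depth. Its median over all gene starts with a peak was 12.7 and 15.5 in naive cells, 15.2 and 14.9 in R1 cells and 18.8 and 17.8 in R2 cells.

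PCDHAC1, the first of the C-type alpha genes, was the strongest of the alpha cluster. It had 28 and 18 reads at the summit in naive cells, 188 and 108 in R1, no peak in R2 replicate 1 and 14 reads in R2 replicate 2. Its percentiles were 91.1 and 85.0 in naive cells, 98.7 and 97.8 in R1 and 77.7 in R2 replicate 2. The summits lay 281 to 332 bp downstream of the start rather than at the start itself. Over background the summit stood at 12.8 ± 0.765-fold in naive cells and 21.8 ± 2.69-fold in R1 (SD, n = 2 each), with 15.6-fold in R2 replicate 2. Naive and R1 libraries did not overlap on this scale, although an exact permutation test of 2 against 2 libraries cannot go below p = 0.333. The share of all coding gene starts that separate in the same way was not computed, so the separation cannot be called particular to this gene.

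PCDHAC2, a C-type gene known for its part in the spacing of serotonergic axons, was weaker. Its summits held 23 and 13 reads in naive cells, 95 and 72 in R1, and 12 in R2 replicate 2, with no peak in R2 replicate 1. The percentiles were 85.3 and 59.9 in naive cells, 95.1 and 95.3 in R1 and 65.6 in R2 replicate 2. Over background it stood at 9.84 ± 0.306-fold in naive cells and 12.6 ± 0.909-fold in R1 (SD, n = 2 each), and at 13.4-fold in R2 replicate 2. On this scale the naive libraries were the lowest of the 5 with a peak, but its percentile among all coding gene starts overlapped, at 54.6 and 46.0 in naive cells, 49.1 and 54.5 in R1 cells and 54.5 in R2 replicate 2.

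PCDHGB7 was the only alternate promoter of the 48 with a peak outside R1. It had 24 reads at the summit in naive replicate 1, at percentile 86.8, and 67 and 50 reads in R1, at percentiles 91.1 and 91.0. No peak was listed in naive replicate 2 or in R2. The summits lay between −36 and 1 bp from the start. Over background it reached 10.5-fold in naive replicate 1 and 8.44- and 9.20-fold in R1, so that the R1 libraries were not above the naive one on this scale.

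The last C-type genes of the gamma cluster had weak peaks. PCDHGC5 had 13 reads in naive replicate 1, at percentile 22.6, and 40 and 30 reads in R1, at percentiles 71.4 and 69.9. PCDHGC4, whose protein is known for a part in neuronal survival, had a start peak in R1 alone, with 33 and 24 reads at percentiles 53.4 and 45.4. Its R1 summits lay 1311 and 512 bp downstream of the start in replicates 1 and 2. Both positions were beyond the promoter window used for the sequences.

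**Figure D2:**
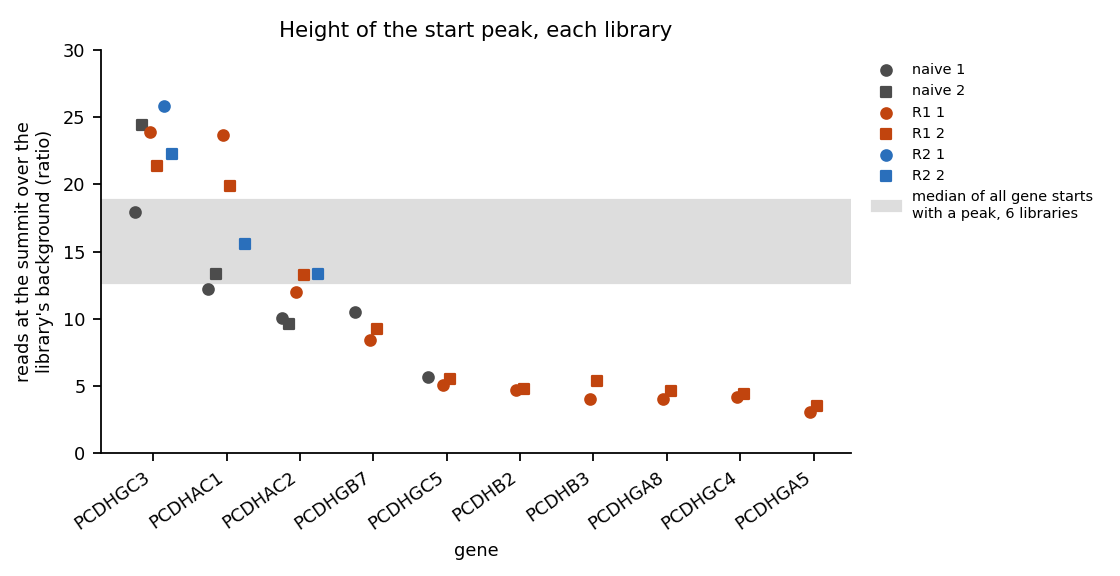
Reads at the summit divided by the background rate of the library (ratio, vertical axis) for the 10 genes open in both libraries of a cell type, with 1 point per library and the grey band spanning the 6 libraries' medians over all coding gene starts with a peak. PCDHGC3 lies at 17.9 to 25.9 in all 6 libraries, and the 5 genes open only in R1 lie at 3.02 to 5.34.

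The fold enrichment of start peaks was compared between cell types for the 10409 genes with a start peak in all 6 libraries. PCDHGC3 was the only clustered gene that could be fitted, and the other 52 had no value in at least 1 library. Its log2 difference was −0.20 (SE 0.18, 95% interval −0.60 to 0.20) for R1 against naive cells, with an adjusted p of 0.53 in limma with Benjamini-Hochberg adjustment over all genes fitted. The difference was −0.11 (SE 0.18, interval −0.51 to 0.28, adjusted p = 0.79) for R2 against naive cells and −0.16 (SE 0.16, interval −0.50 to 0.19, adjusted p = 0.59) for all resistant libraries against naive. Between R1 and R2 it was −0.09 (interval −0.48 to 0.31, adjusted p = 0.83). Of all genes fitted, 7.75%, 1.34%, 5.69% and 1.78% passed the threshold of 0.05 in these 4 comparisons, which share libraries, and PCDHGC3 passed in none. The median log2 difference of the chromosome 5 genes fitted was 0.15 in R1, 0.05 in R2 and 0.11 in the resistant libraries against naive.

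The number of open clustered genes was 9.0 ± 8.29 in resistant libraries (SD, n = 4) and 4.0 ± 1.41 in naive libraries (SD, n = 2), a difference of 5.0 with p = 0.8 in a two-sided exact permutation test over libraries. The smallest p this design allows is 0.133. Without R1 the difference was −2.0, and R1 and R2 lay on opposite sides of naive replicate 1. The median percentile of the 53 genes among all coding gene starts was 0 in each library because most had no peak, so that it could not differ and a test of it says nothing.

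The excess of open promoters in R1 shrank when lists of equal length were compared. Among the 60000 strongest peaks of each library, 4 and 3 clustered genes were open in naive cells, 4 and 4 in R1 cells and 1 and 3 in R2 cells. The 4 genes were PCDHAC1, PCDHAC2, PCDHGB7 and PCDHGC3 in naive replicate 1 and in both R1 libraries. With 20000 peaks, the numbers were 3 and 2, 3 and 3, and 1 and 2. The 3 genes were PCDHAC1, PCDHGB7 and PCDHGC3 in naive replicate 1 and PCDHAC1, PCDHAC2 and PCDHGC3 in both R1 libraries. In number, R1 was then level with naive replicate 1 and above naive replicate 2 and both R2 libraries. The share of all coding gene starts open in the cut lists was not computed, so the fall in R1 cannot be set against gene starts in general. The difference between resistant and naive libraries was −0.5 and −0.25, against 5.0 with the whole lists.

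**Figure D3:**
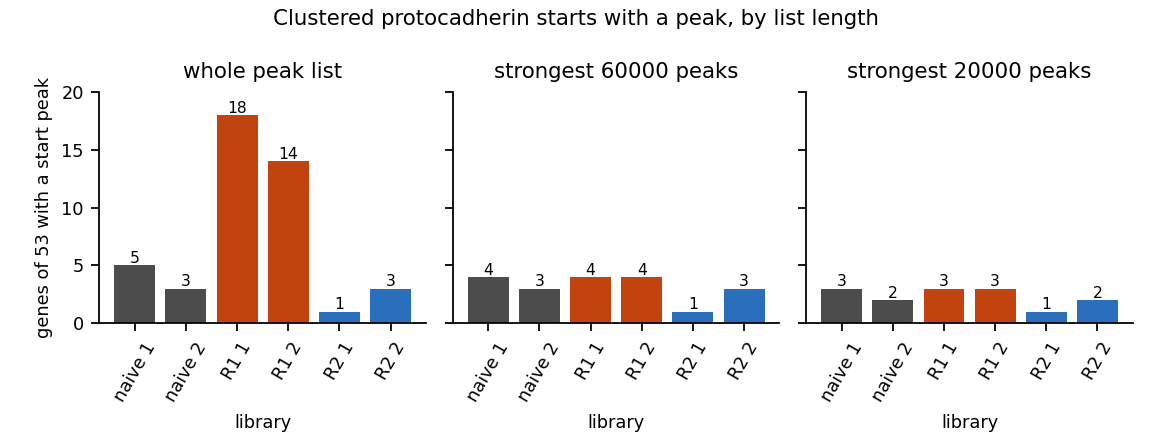
Number of the 53 genes with a peak within 1000 bp of the start (vertical axis) in each library, counted in the whole peak list, its 60000 strongest peaks and its 20000 strongest peaks. The R1 bars fall from 18 and 14 to 4 and 4 and then to 3 and 3, the level of naive replicate 1.

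The start peaks found in R1 alone were weak and often off the start. They belonged to 17 genes, of which PCDHB2, PCDHB3, PCDHGA5, PCDHGA8 and PCDHGC4 had a peak in both R1 libraries. The other 12 genes had a peak in a single R1 library. They were PCDHA4, PCDHA5, PCDHA9, PCDHB6, PCDHB16, PCDHGA2, PCDHGB1, PCDHGA7, PCDHGA9, PCDHGA10, PCDHGA11 and PCDHGA12. A start peak in R1 alone was found for 10.8% of all coding gene starts. The 22 peaks of the 17 genes held 18 to 37 reads at the summit, with a median of 26, and percentiles of 2.62 to 67.0 with a median of 42.3. Only 5 of the 22 summits lay within 250 bp of the start, and 15 lay more than 250 bp downstream. Over all coding gene starts with a peak, 62.4% and 62.6% of the summits lay within 250 bp in R1 replicates 1 and 2. The median percentiles of those peaks were 96.7 and 96.1. The 17 genes were picked for lacking a peak in the shallower lists, which favours weak peaks. The same values were not computed for the 10.8% of coding gene starts with a peak in R1 alone. Whether weak peaks off the start are particular to the clustered genes was therefore not tested.

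PCDHB2 was the strongest of these genes in R1 replicate 1, with 37 and 26 reads in R1 at percentiles 65.2 and 55.8. Its summits lay at 29 and −19 bp from the start, close to the element shown above. PCDHB3, the strongest in replicate 2, had 32 and 29 reads at percentiles 49.7 and 67.0, with the summit at −50 bp in replicate 1 and at 778 bp in replicate 2. PCDHGA8 had 32 and 25 reads with summits at −633 and −416 bp, and PCDHGA5 had 24 and 19 reads with summits 836 and 739 bp downstream. The replicates thus placed the summit at the start itself only for PCDHB2.

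To set the R1 peaks beside the depth of the other libraries, the reads of the 18 genes open in R1 replicate 1 were scaled by the ratio of background rates. In naive replicate 2, 4 of the 18 would reach the fewest reads called there, of which 3 had a peak and PCDHGB7 did not. In R2 replicate 2 the result was the same, and in R2 replicate 1, 4 would reach it and only PCDHGC3 had a peak, with PCDHAC1, PCDHAC2 and PCDHGB7 missing. In naive replicate 1, the deepest of these libraries, 12 would reach it, and 7 of them had no peak: PCDHA4, PCDHB2, PCDHB3, PCDHB16, PCDHGA8, PCDHGA11 and PCDHGC4. These 7 scaled to between 9.22 and 10.7 reads, close to the fewest called there, 9. Only genes with a peak in R1 were scaled, which selects high R1 reads. A difference beyond depth was therefore not tested. From R1 replicate 2, with 14 open genes, 10 would reach the limit in naive replicate 1 and 5 of them had no peak, and 6 would reach it in naive replicate 2, where PCDHB3, PCDHGB7 and PCDHGC5 had none. In each R2 library 4 would reach it, with the same genes missing as from replicate 1. No gene below the scaled limit had a peak in the naive or R2 libraries.

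The C-type promoters were richer in GC than the alternate ones. The median GC content of the promoter window was 59.7% for the 5 C-type genes and 38.5% for the other 48, against 60.3% for all coding gene starts. CpG dinucleotides numbered 17 in the C-type and 6.5 in the other windows at the median, against 18 for all starts. Starts open in all 6 libraries had a median of 65.3% GC, and starts open in none 43.7%. Among the clustered genes, the 31 without a peak, all of them alternate promoters, had a median of 37.0%, and the 17 alternate promoters with a peak in any library 41.0%. At least 1 of the 3 longer forms of the element was present in 26 of the 31 and in 11 of the 17, against 3.42% of all starts. TATAAA was found in 13 of the 53 windows, or 24.5%, against 10.8% of all starts and 26.5% of starts open in none, so that it lay near the latter share. A core of CTCF sites, with CC, 3 free bases, AG, 2 free bases and GGC, was found in 1 of 53, against 12.0% of all starts. Among starts open in none it was found in 4.87%. The lack of this exact core does not show that a promoter has no CTCF site.

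**Figure D4:**
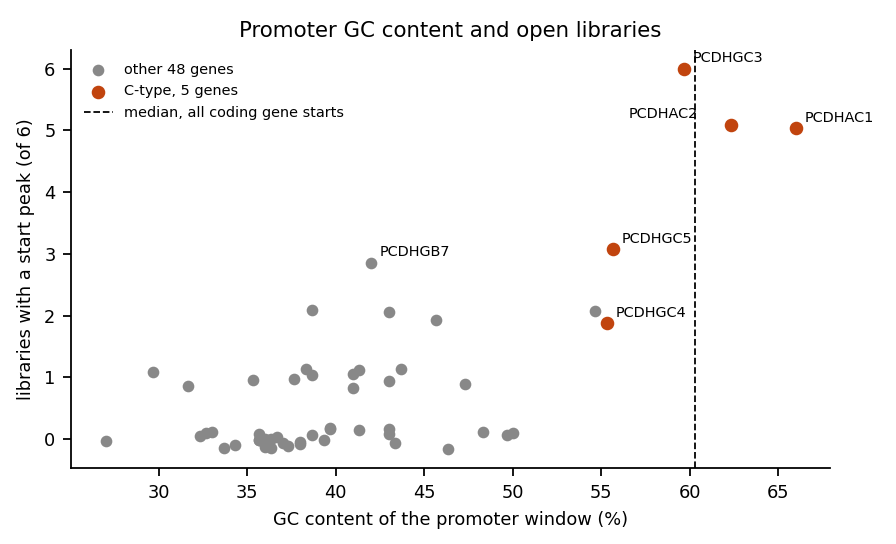
GC content of the window from 250 bases before to 50 after the start (horizontal axis, %) against the number of the 6 libraries with a start peak (vertical axis, points shifted slightly at random), for the 5 C-type genes in orange and the other 48 in grey. The dashed line is the median of all coding gene starts, 60.3%, and the C-type genes lie at 55.3% to 66.0% with peaks in 2 to 6 libraries.

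Peaks elsewhere in the cluster numbered 18 and 13 in naive cells, 79 and 75 in R1 cells and 8 and 8 in R2 cells. Per 100 kb this was 2.89 and 2.09 in naive cells, against 3.08 and 2.20 over chromosome 5, and 1.29 and 1.29 in R2, against 1.35 and 1.45. In R1 it was 12.7 and 12.1, above the 8.98 and 7.46 of the chromosome. Over the genome the rates were 5.02 and 3.75 in naive cells, 11.0 and 9.46 in R1 cells and 2.19 and 2.38 in R2 cells, so that the cluster lay below the genome in naive and R2 libraries and above it in R1. The resistant libraries had 42.5 ± 39.9 (SD, n = 4) and the naive libraries 15.5 ± 3.54 (SD, n = 2), a difference of 27.0 with p = 0.8 in the two-sided exact permutation test. Without R1 the difference was −7.5. With the 60000 and 20000 strongest peaks of each list it was 2.5 and −1.25, and counting only peaks farther than 2500 bp from a clustered gene's start it was 6.0.

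Merged over libraries, these peaks formed 88 regions, of which 68 were found in R1 alone and 5 in all 6 libraries. The R1 lists were the longest, and the same shares were not computed over the genome. The counts in R1 alone and in all 6 libraries therefore cannot be called particular to the cluster. Of the 88, 52 had their summit within 2500 bp downstream of a clustered gene's start, at a median of 1960 bp, and all 52 lay in exons. Peaks within 1000 bp of a start had been left out. The first exons of these genes are large. The position of these summits and their place in exons were therefore largely set in advance. These exonic regions had a median GC content of 65.9% over 100 bases to each side of the summit, and 46 of them were found in R1 alone. None of the 52 was found in all 6 libraries.

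The 5 regions found in all 6 libraries were more than 1000 bp from the gene starts used here. The strongest in R1 and R2, chr5:141040770-141041431, lay between the alpha and beta clusters, 322 bp from the start of the noncoding gene ENSG00000288892. It had 26 and 18 reads at the summit in naive cells, 147 and 85 in R1 cells and 24 and 19 in R2 cells, at percentiles of 89.3, 85.0, 97.7, 96.4, 94.1 and 89.6. Another, chr5:141320414-141321115, lay 28 bp from the start of TAF7, a subunit of the general transcription factor TFIID whose gene sits between the beta and gamma clusters. It had 22 and 15 reads in naive cells, 112 and 73 in R1 cells and 10 and 12 in R2 cells.

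The other 3 lay within the alpha and gamma clusters. The region chr5:141001493-141002485 was in an intron shared by the 15 alpha genes, with 24 and 18 reads in naive cells, 71 and 47 in R1 cells and 10 and 9 in R2 cells. The region chr5:141507323-141510178 was in an intron shared by the 22 gamma genes, with 29 and 19, 113 and 72, and 17 and 10 reads, and was the strongest of the 5 in both naive libraries. Its summit lay 846 bp from the start of a shorter annotated PCDHGC3 transcript. The region chr5:141510364-141512864 was in the last exon of the gamma genes, with 15 and 17, 65 and 47, and 9 and 11 reads, and was the only one of the 5 whose summit window held the CTCF core. The same core was in 12 of the 88 regions, or 13.6%, and in 7.36% and 10.9% of all peaks of R1 and R2 replicate 1. It was in 18.2% and 13.6% of the 20000 strongest peaks of these 2 libraries, and 5 regions are too few to set against these shares. In each of the 5 regions the R1 libraries, which were the deepest, had the most reads. Divided by the background rate, the order differed between regions. In the alpha intron R1 was lowest, at 8.94 and 8.65, against 10.5 and 13.3 in naive cells and 11.8 and 10.0 in R2. Between the alpha and beta clusters R2 was highest, at 28.2 and 21.1, against 18.5 and 15.6 in R1. At TAF7 R1 was highest, at 14.1 and 13.43, against 11.8 and 13.35 in R2.

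**Figure D5:**
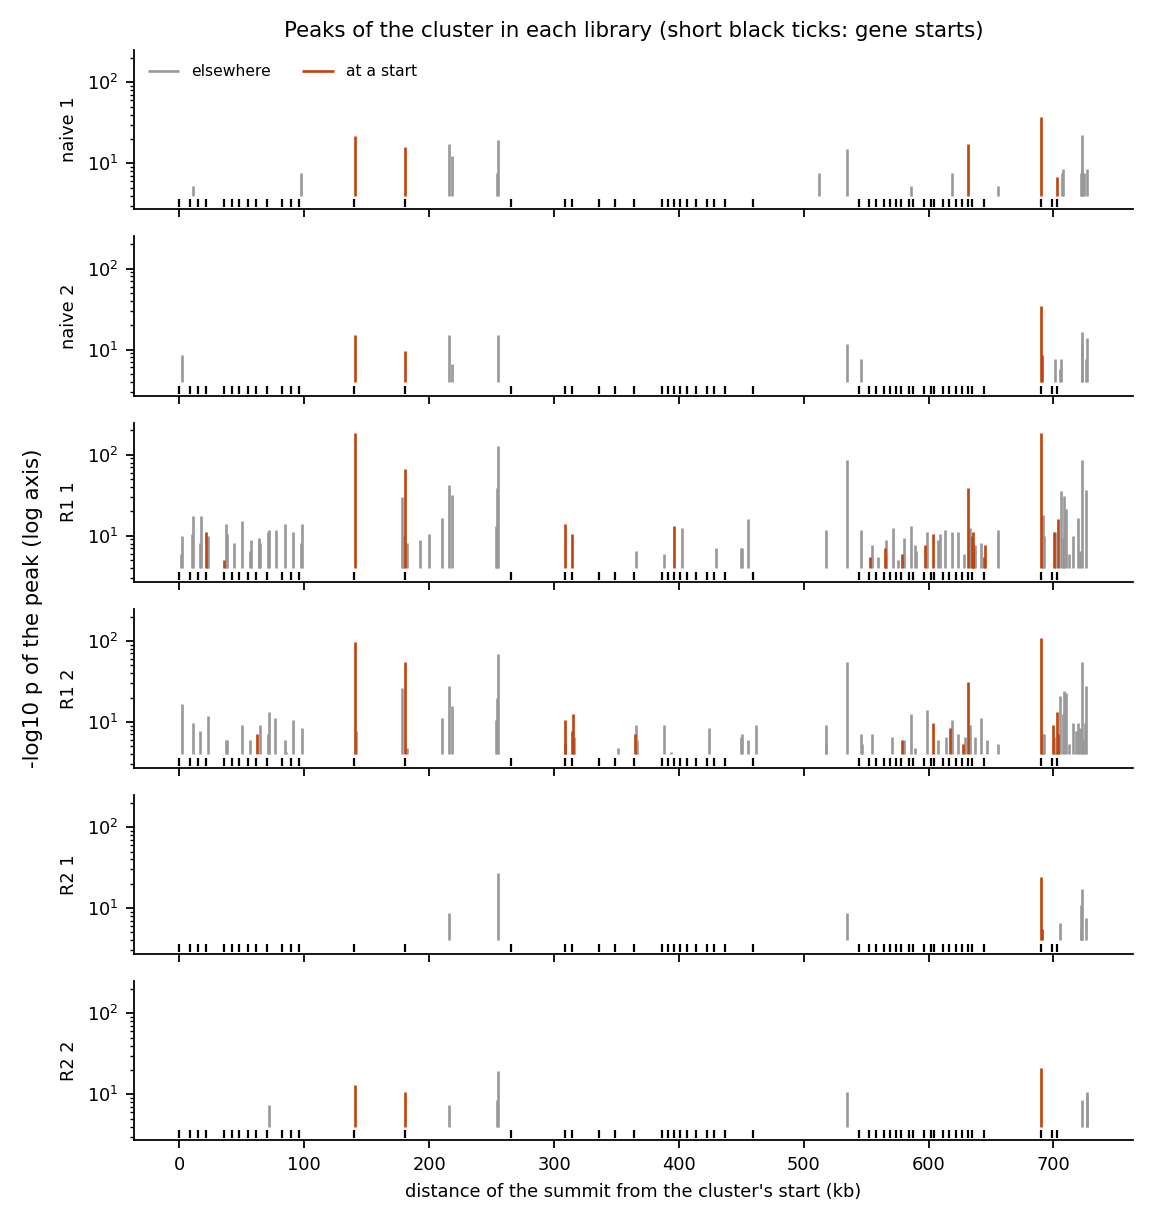
Each panel is a library and each line a peak, placed by the distance of its summit from the start of the cluster (kb, horizontal axis) with its height giving −log10 p (log axis), in orange at gene starts and grey elsewhere, and short black ticks marking the 53 starts. The tall lines at PCDHAC1, PCDHAC2, PCDHGC3 and the region between the alpha and beta clusters recur across libraries, and the low lines among the alternate promoters appear mainly in R1.

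Other gene groups were read against the 52.0% of all coding genes with a start peak in all 6 libraries. Of the 12 non-clustered protocadherins, which lie singly in the genome, 6 had a start peak in all 6 libraries, near that share, and 2, PCDH11X and PCDH17, in none. PCDH9 was the 1 gene of the 6 fitted that passed the threshold, at a log2 difference of 0.83 for R1 against naive (SE 0.18, adjusted p = 0.016 in limma). It was 0.67 for R2 against naive (adjusted p = 0.084) and 0.75 for all resistant libraries against naive (adjusted p = 0.018, also passing). Between R1 and R2 it was 0.16 (adjusted p = 0.65), which does not show whether the change is shared by R2 or particular to R1. The difference was 0.89 and 0.77 without naive replicates 1 and 2 (adjusted p = 0.057 and 0.081) and 0.81 and 0.87 without R1 replicates 1 and 2 (adjusted p = 0.20 and 0.15). Of 14 factors known to act on the clusters, 13 (92.9%) had a start peak in all 6 libraries, CTCF and STAG1 among the strongest, and SMC1A lacked one in R2 replicate 1. None of the 13 passed the threshold in the fit. Of the 31 other coding genes within 500 kb of the cluster, 23 (74.2%) had a start peak in all 6 libraries and 1 in none.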

How the data were processed

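ATAC-seq peak lists of 6 libraries (naive, R1 and R2, 2 each) were analysed. Per the submitters' processing notes, the authors used BWA 0.7.12-r1039, Picard 1.65, SAMtools 1.3.1, MACS2 2.2.7.1 and bedtools 2.25.0, and called peaks per library at q 0.01, with an extension size of 200 and a shift of 100 whose sign is not clear from the methods, which could displace summits. The methods name hg19, but the last peaks of all 24 chromosomes fitted hg38, which was used. Reads of mapping quality 0 were dropped by the authors, which can lower values in near-identical protocadherin exons. The deposited columns used were fold enrichment, −log10 p and −log10 q. Fold enrichment was a ratio of reads to a background rate that was the same for all peaks of a library. Regional differences in background were thus not corrected. Reads at a summit and the background rate were recovered from the fold enrichments, and the p-values recomputed from them matched within 0.01 for 100% of the peaks with a −log10 p below 250.

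A start had a peak where one lay within 1000 bp, and the peak with the highest −log10 p was taken. Percentiles are of −log10 p among all peaks of a library, or among all coding gene starts. Counts were compared by exact permutation tests (SciPy 1.17.1), and log2 fold enrichment of genes with a start peak in all 6 libraries by limma after quantile normalization. In simulations of 200 changed genes of 10409, this fit recovered 58.5% at a log2 change of 1 and 96.0% at 2 with changes in both directions, but 12.7% of calls at 2 were false, and 21.1% with all changes upward, against 2.5% in both cases under median centring. Calls over all genes may therefore include more false ones than the threshold implies. Members, lists and motifs were chosen with earlier results of these data known. Genes named are those with a start peak in any library, and of the comparison lists the best and worst by mean percentile or those called. Groups came from the sample titles. The alternatives were other distances, stricter peak lists, other normalizations and leaving out each library. Python, R and limma versions were 3.11.15, 4.3.3 and 3.58.1.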

Additional observations from a re-analysis of the deposited data

Results flagged for a closer look

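The number of peaks elsewhere in the cluster moved in opposite directions in the resistant lines. Both R1 libraries, with 79 and 75, lay above both naive libraries, with 18 and 13, and both R2 libraries, with 8 and 8, lay below them. The mean difference from naive was 61.5 in R1 and −7.5 in R2, and the difference between them was not tested. The background rate moved in the same order, from 0.850 and 0.899 reads per window in R2 to 7.94 and 5.43 in R1, so that depth and cell type cannot be told apart.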

How the results depend on the processing

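List length moved the comparisons of counts. With the 60000 strongest peaks, 4 genes were open in both R1 libraries, and with 20000, 3, against 10 with the whole lists. The resistant minus naive difference in open genes became −0.5 and −0.25, and that in peaks elsewhere 2.5 with 60000 and −1.25 with 20000. Farther than 2500 bp from a clustered gene's start it was 6.0. Without the R1 pair, an alternative chosen after seeing the data, these differences were −2.0 and −7.5. Leaving out 1 library gave 3 to 5 open genes in naive cells, 14 to 18 in R1 and 1 to 3 in R2, counted in the library that remained. It gave differences of 2.0 to 7.67 in open genes and of 14.8 to 38.5 in peaks elsewhere. Other distances, the stricter q and the canonical starts changed no direction.

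No clustered gene was called in any limma fit, with 0 in each comparison, and 0 also at an unadjusted p under 0.05 for the 1 gene of the main comparison. Replicate numbers did not pair the libraries (correlations of deviations 0.048, −0.011 and 0.011), and with the replicate number as a block the count was also 0. Over the alternatives the log2 difference of PCDHGC3 ranged from −0.31 to −0.08 in R1, with adjusted p of 0.37 to 0.88, and from −0.23 to 0.00 in R2, being 0.0038 and so reversed without naive replicate 2. Calls over all genes depended on the libraries used. Leaving out a naive or R1 library lowered the number for resistant against naive, and leaving out an R2 library raised it. Each of these fits left 1 library in a group, so that they cannot show that calls rested on a single library. For resistant against naive, 592 genes were called, 0 without naive replicate 1 (2116 at an unadjusted p under 0.05) and 25 without naive replicate 2, and median centring gave 668. Without R2 replicate 1, PCDHAC1 could be fitted, and its R1 minus naive difference was 0.42 (SE 0.16, adjusted p = 0.12 in limma), against 0.04 (SE 0.17, adjusted p = 0.89) for PCDHAC2. The fit that sets missing peaks to no enrichment gave 22 genes a value, of which 3 had an unadjusted p under 0.05 for R1 against naive, but it gave these 3, PCDHA5, PCDHGA2 and PCDHGB1, whose only peaks were in R1, negative R1 minus naive differences, and it was not used for direction. Depth limits all statements on closed promoters, which mean no listed peak at this depth.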
